A study of Mus musculus with 12 samples.

Results

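The 10 genes Adm, Vegfa, Bnip3, Egln1, Egln3, Ndrg1, P4ha1, P4ha2, Car9 and Ddit4 are known to be induced when cells lack oxygen, and none of them is an enzyme of glycolysis. Every non-control probe carrying 1 of these names was taken, and all 10 names were present among 27962 gene names, on 15 of the 41174 probes. RNA came from mouse embryonic fibroblasts (MEFs), connective tissue cells grown out of embryos, on Agilent 1-colour oligonucleotide arrays of 3 SIRT1 genotypes, SIRT1 being a deacetylase that consumes NAD. There were 4 arrays of SIRT1 knockout (KO) cells, 4 of heterozygous (Het) cells and 4 of wild-type (WT) cells, all labelled female. The labels name no treatment and no low oxygen for any culture, and all cultures grew in DMEM with 10% FBS, 4 mM glutamine and 25 mM glucose until harvest in the logarithmic phase. The labels name neither the allele, the strain nor the number of embryos behind each genotype, and they do not say whether replicates of a genotype are different cultures or embryos. The p-values below therefore speak of the variation among these arrays, part of which may be technical, and within KO and Het cells perhaps all. Among the WT arrays, replicate 3 differed from the others in its sex genes, as given below.

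Cells sense oxygen through prolyl hydroxylases, among them EGLN1 and EGLN3, which use oxygen to mark the alpha subunits of hypoxia-inducible factor (HIF) for destruction by the VHL ubiquitin ligase. When oxygen falls the alpha subunit persists, pairs with ARNT and binds DNA at a short core motif near its target genes. The targets described here include secreted signals (Adm, Vegfa), the sensors themselves (Egln1, Egln3), proteins of mitochondrial clearance and stress signalling (Bnip3, Ndrg1, Ddit4), collagen hydroxylases (P4ha1, P4ha2) and a carbonic anhydrase (Car9).

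A level below is a probe's log2 signal after the 75th percentile of its array was subtracted, so that 0 equals that percentile, and a difference is a log2 difference between genotype means with its standard error (SE). Levels of different probes are not comparable with each other. All 10 fibroblast markers examined were well above background on every array, and 1 of them, Thy1, differed between genotypes past the threshold (values beside Adm). Array WT replicate 3 stood apart, with correlations of 0.923 to 0.960 with the other arrays, and it went against its female label. Xist, the X-inactivation RNA, was at −2.94 there and between 1.66 and 3.42 on the other 11 arrays. The Y-linked Ddx3y was at 1.04 there. It was next highest on the other arrays numbered 3, at −4.35 on Het replicate 3 and −5.28 on KO replicate 3, both well above background. Elsewhere Ddx3y was at most −7.04, with KO replicate 4 and Het replicate 5 also well above background. KO replicates 4 and 5 were the closest pair of arrays checked, with r = 0.998 over probes and 115 probes over 2-fold apart. Of the 2 Sirt1 probes, A_51_P141152 fell by 0.83 in KO against WT cells (SE 0.17, limma adjusted p = 0.0361) and A_52_P358612 differed by 0.02 (adjusted p = 0.982). In Het against WT cells neither was lower, with differences of 0.01 and 0.08 (adjusted p = 0.983 and 0.907). The deleted part of the gene is not given in the sources used here, so neither checks the labels fully.

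The letters in front of these genes are shown for the 3 genes with their highest mean in WT cells and for Bnip3, whose mean was highest in Het cells. Each is the 250 bases before the annotated start in RefSeq (GRCm38.p6), 5′ to 3′ along the gene's strand, with the HIF core motifs ACGTG and GCGTG and their complements CACGT and CACGC in capitals.
Adm, chr7:110627407-110627656, plus strand: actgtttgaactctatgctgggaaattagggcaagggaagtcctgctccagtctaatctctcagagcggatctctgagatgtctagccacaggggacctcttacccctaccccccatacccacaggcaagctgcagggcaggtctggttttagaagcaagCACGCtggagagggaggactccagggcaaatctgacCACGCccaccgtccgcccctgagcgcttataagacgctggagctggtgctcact
Egln1, chr8:124949255-124949504, minus strand: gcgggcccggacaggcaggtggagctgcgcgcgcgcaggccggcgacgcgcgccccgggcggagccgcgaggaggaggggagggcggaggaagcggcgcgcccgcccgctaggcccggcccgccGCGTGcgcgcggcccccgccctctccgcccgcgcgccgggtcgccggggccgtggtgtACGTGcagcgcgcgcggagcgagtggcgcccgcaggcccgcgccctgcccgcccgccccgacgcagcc
Egln3, chr12:54203875-54204124, minus strand: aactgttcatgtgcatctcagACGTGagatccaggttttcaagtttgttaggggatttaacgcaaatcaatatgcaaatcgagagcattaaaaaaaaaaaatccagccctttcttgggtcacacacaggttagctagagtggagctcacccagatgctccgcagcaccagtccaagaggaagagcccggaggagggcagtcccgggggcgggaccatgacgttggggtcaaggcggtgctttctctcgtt
Bnip3, chr7:138909507-138909756, minus strand: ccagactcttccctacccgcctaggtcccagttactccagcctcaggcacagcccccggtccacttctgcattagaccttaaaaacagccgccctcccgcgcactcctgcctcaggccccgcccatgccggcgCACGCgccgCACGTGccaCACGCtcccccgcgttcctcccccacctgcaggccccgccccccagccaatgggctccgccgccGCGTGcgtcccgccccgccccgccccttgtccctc
The Adm window held CACGC at 2 places, 90 and 54 bases before the start, and the Bnip3 window held 5 matches, of which CACGT and ACGTG overlap in CACGTG. Among 32851 such windows of RefSeq genes, 16.6% held ACGTG on either strand, 28.2% held GCGTG and 38.6% held at least 1 of them. Of the 10 windows found for 9 of the genes (Vegfa has 2), 8 held ACGTG, 7 held GCGTG and 9 held at least 1. A match is a run of letters and not a measured binding site. Ndrg1 had no window in the table.

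In KO against WT cells 3 of the 14 tested probes passed the threshold (limma, Benjamini-Hochberg adjusted p under 0.05 over all 25601 probes tested), all of them lower: the Adm probe and both probes of Egln1. Of all tested probes, 1.5% passed in this comparison, 0.766% higher and 0.73% lower. In Het against WT cells 0 of the 14 passed with limma, against 1.09% of all probes, and 5 had an unadjusted p under 0.05, against 15.9% of all. In KO against Het cells 1 of the 14 passed, Adm, against 0.816% of all probes.

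The arrays of 2 genotypes did not overlap at 4 of the 14 probes for KO and WT cells (1 higher and 3 lower in KO), at 2 for Het and WT cells (both lower in Het) and at 5 for KO and Het cells (1 higher and 4 lower in KO). Over all tested probes this held for 8.64% of probes for KO and WT cells (4.95% higher and 3.69% lower in KO), 8.66% for Het and WT cells (5.15% higher and 3.51% lower in Het) and 9.92% for KO and Het cells (4.59% higher and 5.33% lower in KO).

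Adm encodes adrenomedullin, a secreted peptide that widens blood vessels and acts through the receptor CALCRL with RAMP2 or RAMP3. Its probe lies on chromosome 7 (mm7, chr7:106544845-106544904, plus strand). Adm stood at −0.83, 0.31, −0.21 and −0.34 in KO replicates 2, 3, 4 and 5, at 1.40, 1.73, 1.60 and 1.60 in Het replicates 2, 3, 4 and 5, and at 3.08, 2.24, 2.70 and 2.14 in WT replicates 1, 2, 3 and 5. Every KO array was below every Het array and every Het array below every WT array. The KO signal was 14.3% of the WT signal (−2.81, SE 0.26, limma adjusted p = 0.00122) and, against Het cells, 27.7% (−1.85, SE 0.26, adjusted p = 0.0104). The Het signal was 51.5% of the WT signal (−0.96, SE 0.26), a difference that did not pass the threshold (adjusted p = 0.105). Levels ordered KO, Het, WT without overlap on all arrays occurred at 23 of the 25601 probes (0.0898%), and in the opposite order at 20 (0.0781%).

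The Adm difference between KO and WT cells was −2.76 without WT replicate 3 (adjusted p = 0.000948) and −2.79 without KO replicate 5 (adjusted p = 0.00796). It was −3.30 within slide 3 and −2.42 within slide 4, and −2.77 when slide was a block (adjusted p = 0.0126). Between KO and Het cells it was −1.36, −2.23 and −1.88 within slides 1, 3 and 4.

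Some markers of cell type differed between genotypes as well. Thy1, a surface protein used to mark fibroblasts, was at 0.79, 0.13, 0.77 and 0.60 in KO, 3.06, 2.71, 2.58 and 2.58 in Het and 4.76, 4.20, 3.10 and 4.12 in WT replicates, in the same order without overlap as Adm. It fell by 3.47 in KO against WT cells (limma adjusted p = 0.000966) and by 2.16 in KO against Het cells (adjusted p = 0.0105), and its second probe also passed for Het minus WT (−1.50, adjusted p = 0.0413). The other 9 fibroblast markers did not pass in any comparison; S100a4 was next, at −1.10 for KO minus WT (adjusted p = 0.112). The summed linear level of the 10 was 558 to 675 in KO, 707 to 892 in Het and 591 to 745 in WT cells.

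The 5 epithelial markers did not move together. Krt19 was at 1.39 ± 0.65 in KO, −0.18 ± 1.41 in Het and 3.01 ± 1.19 in WT cells (SD, n = 4 each). The other 4 had higher means in KO than in WT cells, of which Epcam (array name Tacstd1) passed (limma adjusted p = 0.0470). Epcam and Cdh1 entered the test through their KO arrays, and each was well above background on 8 of 12 arrays. The Epcam call held in 7 of 21 alternative analyses and was lost with slide as a block (adjusted p = 0.0609). Krt8 passed for Het minus WT (adjusted p = 0.0340). Both Epcam and Krt8 were well above background on 1 of 4 WT arrays, so these calls set signals against levels near background and no fold is given. The summed linear level of the 5, which the brightest probe can dominate, was 3.18 to 5.62 in KO, 1.05 to 3.40 in Het and 2.75 to 18.0 in WT cells. Per array, 2 to 5 of the 5 were well above background. Means fell from KO to Het to WT, the reverse of Adm, for Epcam (−4.91, −5.24 and −6.49), Cdh1 (−3.81, −5.95 and −6.41) and Krt18 (0.33, −0.61 and −1.93). KO and Het arrays overlapped at each of them. Krt8 had its highest mean in Het cells (−2.95) and Krt19 in WT cells. Endothelial markers summed to 0.041 to 0.085 per array, with 1 to 3 of 5 well above background and Pecam1 and Tie1 so on 0 of 12 arrays, and haematopoietic markers to 0.18 to 0.43, with 1 to 4 of 5 well above background and Ptprc, at its brightest probe, on 0.

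**Figure D1:**
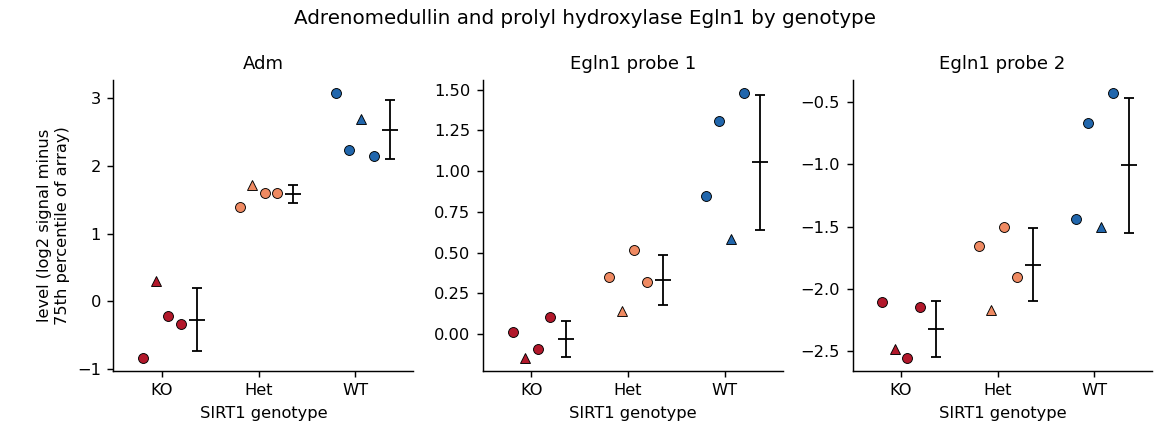
Level of Adm and of 2 Egln1 probes (log2 signal minus the array's 75th percentile, vertical axis) on each of the 12 arrays by SIRT1 genotype (horizontal axis), with replicates numbered 3 as triangles and mean ± SD over 4 arrays in black. Adm and Egln1 probe 1 show KO, Het and WT arrays in 3 separate tiers, lowest in KO, while Egln1 probe 2 overlaps between neighbouring genotypes.

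Egln1 encodes the prolyl hydroxylase that does most of the HIF marking in many cells and is itself a HIF target. At its brighter probe (mm7, chr8:123496739-123496798, minus strand) the level was 0.01, −0.14, −0.09 and 0.10 in KO replicates 2, 3, 4 and 5, 0.35, 0.14, 0.52 and 0.32 in Het replicates 2, 3, 4 and 5, and 0.85, 1.31, 0.58 and 1.48 in WT replicates 1, 2, 3 and 5. The KO arrays lay close together and below all others, and WT arrays had the widest spread. The KO signal was 47.2% of the WT signal (−1.08, SE 0.20, limma adjusted p = 0.0251), the Het signal 60.6% (−0.72, SE 0.20, adjusted p = 0.108) and the KO signal 77.8% of the Het signal (−0.36, SE 0.20, adjusted p = 0.538). The second probe gave −2.11, −2.48, −2.55 and −2.15 in KO, −1.66, −2.17, −1.50 and −1.91 in Het and −1.44, −0.67, −1.50 and −0.43 in WT replicates, in the same order of numbers. Here KO and WT arrays did not overlap, while Het replicate 3 fell among the KO arrays and Het replicate 4 reached the lowest WT array. The KO signal was 40.2% of the WT signal (−1.32, SE 0.26, adjusted p = 0.0340). The array file's coordinates for this probe cover 13 of its 60 bases, so no position is given.

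The Egln1 calls held in fewer of the alternative analyses than that of Adm for KO minus WT, in 14 of 22 and 9 of 21 against 22 of 22. When slide was a block the differences between KO and WT cells were −1.19 (adjusted p = 0.0976) and −1.46 (adjusted p = 0.115) at the brighter and the dimmer probe. In every result with slide as a block, WT replicate 1, alone on slide 2, adds nothing to the differences. That fit also has fewer residual degrees of freedom, 6 against 9, so a lost call there need not mean a smaller difference. Within slides 3 and 4 the brighter probe gave −0.93 and −1.48 and the dimmer one −1.03 and −1.93. Without WT replicate 3 they were −1.24 (adjusted p = 0.0035) and −1.48 (adjusted p = 0.00842). The brighter probe lost the call without KO replicate 2, 4 or 5 or WT replicate 2 or 5 (adjusted p = 0.067 to 0.103), and the dimmer probe without any 1 array other than Het replicate 3, WT replicate 1 or WT replicate 3 (0.0509 to 0.133). Thy1, given beside Adm, had the same order of genotype means as both Egln1 probes. The part of cell type in the Adm and Egln1 results was not tested.

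**Figure D2:**
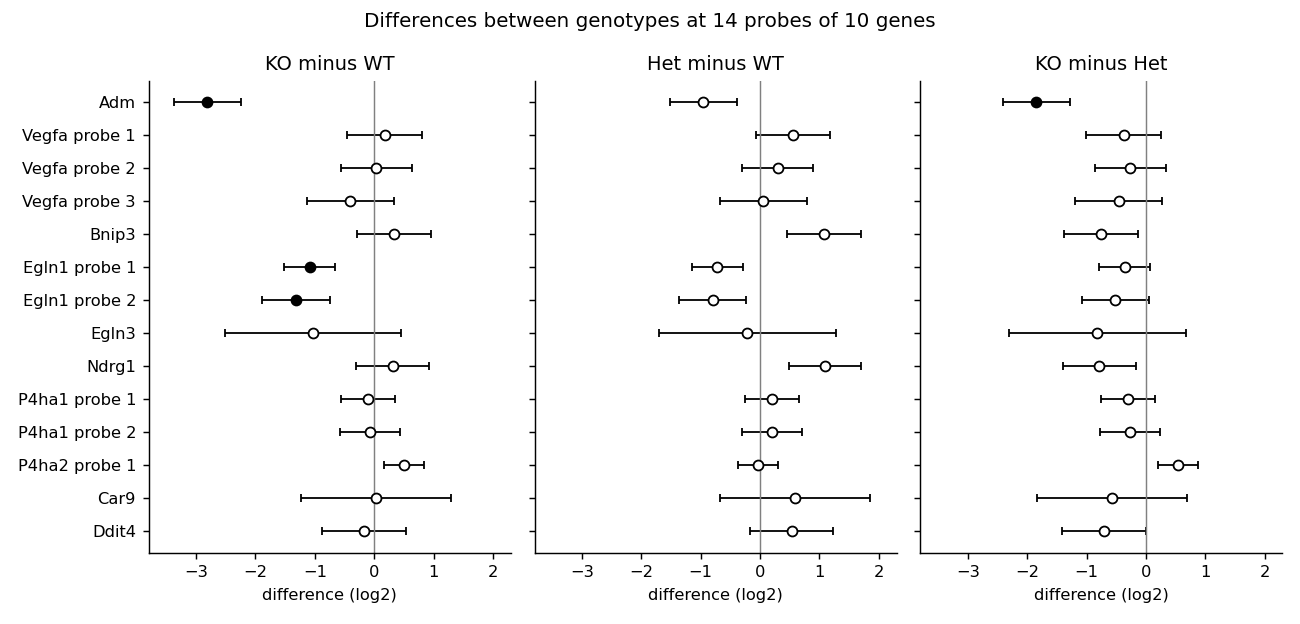
Log2 differences (horizontal axis) at the 14 tested probes (vertical axis) for KO minus WT, Het minus WT and KO minus Het, with 95% confidence intervals from the limma fit. Filled points passed an adjusted p of 0.05: Adm and both Egln1 probes for KO minus WT, none for Het minus WT, and Adm for KO minus Het.

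Egln3 encodes the inducible relative of EGLN1 and was read by a probe on chromosome 12 (mm7, chr12:52198570-52198629, minus strand). Its level was −1.54, −2.75, −1.66 and −1.65 in KO replicates 2, 3, 4 and 5, −0.97, −2.58, −0.30 and −0.47 in Het replicates 2, 3, 4 and 5, and −0.12, −0.03, −3.03 and −0.29 in WT replicates 1, 2, 3 and 5. The array numbered 3 was the lowest of each genotype, so the genotypes overlapped. The KO difference from WT was −1.03 (SE 0.68, limma adjusted p = 0.501), with a 95% interval of −2.52 to 0.45. Without the 3 arrays numbered 3 it was −1.47 (SE 0.19, adjusted p = 0.00145) and the KO difference from Het was −1.04 (adjusted p = 0.0102), in a fit where 15.4% and 7.54% of all probes passed. Within slide 3, which holds WT replicates 2 and 3, the KO difference from WT was −0.01, and within slide 4 it was −1.37.

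Bnip3, Ndrg1 and Ddit4 had their highest mean in Het cells. Bnip3 encodes a mitochondrial membrane protein that recruits the autophagy machinery, and its probe lies on chromosome 7 (mm7, chr7:135295711-135295770, minus strand). Bnip3 stood at 1.60, 1.58, 1.89 and 1.87 in KO replicates 2, 3, 4 and 5, at 2.40, 2.14, 2.72 and 2.66 in Het replicates 2, 3, 4 and 5, and at 2.29, 0.76, 1.49 and 1.06 in WT replicates 1, 2, 3 and 5. Het arrays lay above all KO arrays, and WT replicate 1 lay among the Het arrays while the other 3 WT arrays were below all KO arrays. The Het signal was 212% of the WT signal (1.08, SE 0.28, limma adjusted p = 0.0974), and KO cells had 59.5% of the signal of Het cells (−0.75, SE 0.28, adjusted p = 0.331), so neither passed the threshold.

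Ndrg1 encodes a stress-induced cytoplasmic protein that slows growth in many cell types (probe at mm7, chr15:67013174-67013233, minus strand). Its level was 2.80, 2.35, 2.80 and 2.80 in KO replicates 2, 3, 4 and 5, 3.99, 2.63, 3.74 and 3.52 in Het replicates 2, 3, 4 and 5, and 2.87, 2.31, 2.22 and 2.10 in WT replicates 1, 2, 3 and 5. Het replicate 3 fell to the level of the KO and WT arrays, and the other 3 Het arrays were above every other array. The Het difference from WT was 1.09 (SE 0.28, limma adjusted p = 0.0910) and the KO difference from Het was −0.78 (SE 0.28, adjusted p = 0.299). Without the arrays numbered 3, Ndrg1 passed in both, with 1.32 for Het minus WT (adjusted p = 0.00603) and −0.95 for KO minus Het (adjusted p = 0.0279). In that fit 10.3% of all probes passed for Het minus WT and 7.54% for KO minus Het. With an indicator for those arrays in place of leaving them out, Ndrg1 (adjusted p = 0.0269) and Egln1 probe 1 (0.0456) passed for Het minus WT, where 2.85% of all probes passed, against 3.81% for KO minus WT and 2% for KO minus Het.

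Ddit4 encodes an inhibitor of the growth kinase complex mTORC1 that acts through the TSC proteins (probe at mm7, chr10:59467933-59467992, minus strand). It stood at 4.89, 4.88, 5.09 and 5.09 in KO replicates 2, 3, 4 and 5, at 5.63, 5.23, 6.04 and 5.89 in Het replicates 2, 3, 4 and 5, and at 6.00, 5.11, 4.18 and 5.35 in WT replicates 1, 2, 3 and 5. All Het arrays were above all KO arrays, and the WT arrays spanned both groups. The KO difference from Het was −0.71 (SE 0.32, limma adjusted p = 0.441), and the Het difference from WT 0.53 (SE 0.32, adjusted p = 0.447).

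**Figure D3:**
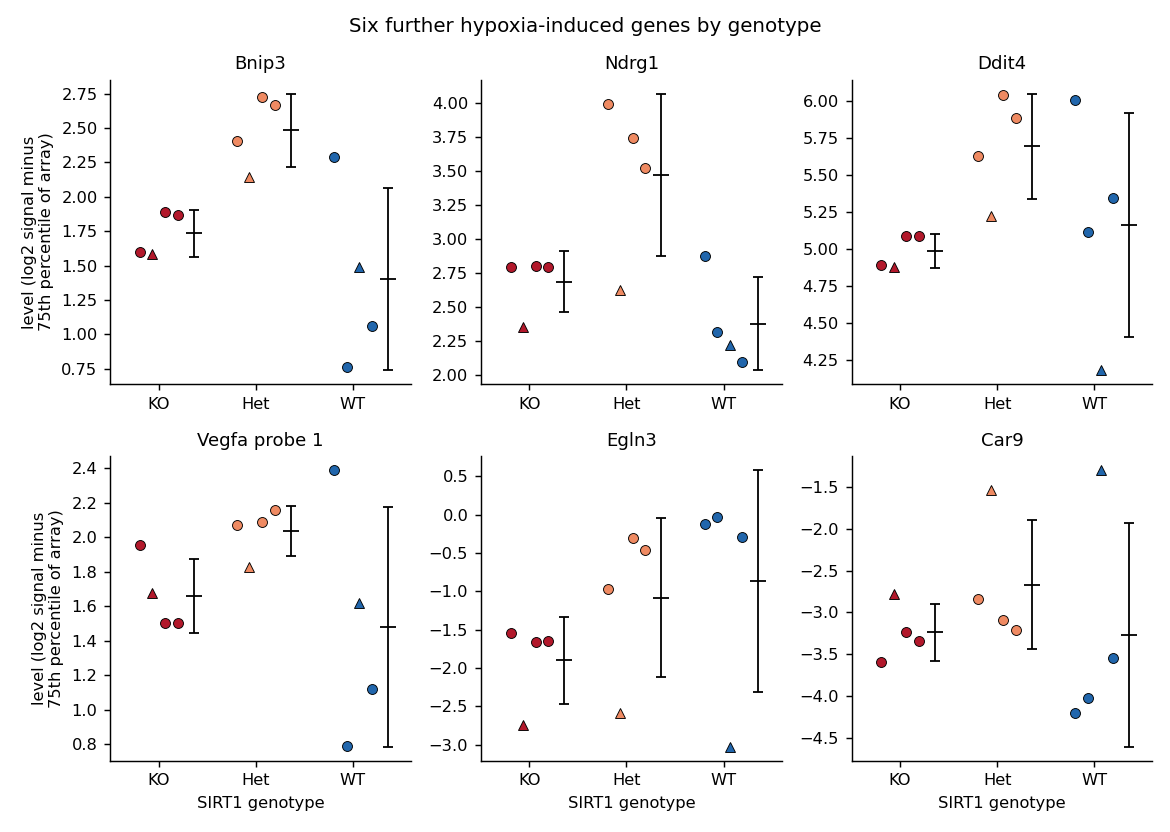
Levels of Bnip3, Ndrg1, Ddit4, Vegfa probe 1, Egln3 and Car9 (log2 signal minus the array's 75th percentile, vertical axes) by SIRT1 genotype (horizontal axes), drawn like the plot of Adm, with triangles for replicates numbered 3 and mean ± SD over 4 arrays. Het arrays sit above all KO arrays for Bnip3 and Ddit4, and arrays numbered 3 are the lowest of their genotype for Egln3 and the highest for Car9.

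Vegfa encodes the vascular growth factor that acts on the receptors FLT1 and KDR. It was read by 3 probes on chromosome 17. Probe 1 (mm7, chr17:44146842-44146901, minus strand) gave 1.96, 1.68, 1.50 and 1.50 in KO replicates 2, 3, 4 and 5, 2.07, 1.83, 2.09 and 2.16 in Het replicates 2, 3, 4 and 5, and 2.39, 0.79, 1.62 and 1.12 in WT replicates 1, 2, 3 and 5. WT replicates 1 and 2 were the highest and the lowest of all 12 arrays, a range of 3.03-fold within WT cells, and the genotypes overlapped. The KO difference from WT was 0.18 at probe 1 (limma adjusted p = 0.824), 0.04 at probe 2 (adjusted p = 0.970) and −0.40 at probe 3 (adjusted p = 0.613). The 95% interval at probe 1 was −0.45 to 0.81. At all 3 probes Het cells had the highest mean, with the largest Het difference from WT at probe 1 (0.56, SE 0.29, adjusted p = 0.370). Probe 2 was printed as 10 spots per array, whose SD within an array was 0.028 to 0.062, and it ranged from 0.19 to 0.71 in KO, 0.01 to 1.10 in Het and 0.01 to 1.01 in WT cells.

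P4ha1 and P4ha2 encode catalytic subunits of the collagen prolyl 4-hydroxylase, which stabilises the collagen triple helix. P4ha2 probe 1 (mm7, chr11:54088287-54088346, plus strand) was at 3.69, 4.24, 3.80 and 3.75 in KO replicates 2, 3, 4 and 5, at 3.49, 3.32, 3.36 and 3.16 in Het replicates 2, 3, 4 and 5, and at 3.36, 3.54, 3.23 and 3.36 in WT replicates 1, 2, 3 and 5. All KO arrays were above all Het and WT arrays. P4ha2 was the 1 gene of the 10 with its highest mean in KO cells, at 141% of the WT signal (0.50, SE 0.16, limma adjusted p = 0.145) and 145% of that in Het cells (0.54, SE 0.16, adjusted p = 0.179), which did not pass the threshold. The second P4ha2 probe, made to another transcript, was well above background on 0 of 12 arrays and was not tested. At the 2 P4ha1 probes on chromosome 10 levels ran from 1.69 to 2.72 and from 0.40 to 1.42 over the 12 arrays, with KO replicate 3 the lowest at both. The 3 genotypes overlapped, and the KO differences from WT were −0.10 and −0.07 (adjusted p = 0.869 and 0.931), with 95% intervals of −0.56 to 0.35 and −0.57 to 0.44.

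Car9 encodes a membrane carbonic anhydrase that acidifies the space outside the cell (probe at mm7, chr4:43526965-43527024, plus strand). Its level was −3.59, −2.78, −3.23 and −3.34 in KO replicates 2, 3, 4 and 5, −2.84, −1.54, −3.09 and −3.20 in Het replicates 2, 3, 4 and 5, and −4.20, −4.02, −1.30 and −3.54 in WT replicates 1, 2, 3 and 5. The array numbered 3 was the highest of each genotype, the reverse of Egln3, and all 12 arrays were well above background at this probe. No difference between genotypes passed the threshold, with KO minus WT at 0.03 (SE 0.58, limma adjusted p = 0.989) and a 95% interval of −1.23 to 1.29. Without the arrays numbered 3, Het cells were 0.87 above WT cells (adjusted p = 0.0276), in a fit where 10.3% of all probes passed. For Het minus WT, Car9 passed in 1 of 22 alternative analyses.

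Across the 14 tested probes the highest mean was in KO cells at 1 (P4ha2 probe 1), in Het cells at 9 (the 3 Vegfa probes, Bnip3, Ndrg1, both P4ha1 probes, Car9 and Ddit4) and in WT cells at 4 (Adm, both Egln1 probes and Egln3), where 34.3%, 33.7% and 32% of all tested probes had theirs. The median difference over the 14 probes was −0.08 for KO minus WT against 0.04 over all probes, 0.20 for Het minus WT against 0.02, and −0.49 for KO minus Het against 0.00. KO cells were below Het cells at 13 of the 14 probes, also under quantile scaling and under no scaling, where the median was −0.24 against 0.25 over all probes. The Het minus WT median turned to −0.04 under no scaling, which moved the median of all probes to −0.21. The 3 comparisons share arrays, and probes of 1 gene are not independent.

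Of the 17 listed genes of oxygen sensing 16 were on the array and 15 were tested. By limma 0 of the 15 passed for KO minus WT, Het minus WT and KO minus Het, where 1.5%, 1.09% and 0.816% of all tested probes passed, and 1, 1 and 0 had an unadjusted p under 0.05, against 16.3%, 15.9% and 11.3% of all. Hif1a, the alpha subunit, was at 2.57, 2.31, 2.78 and 2.66 in KO, 2.36, 2.44, 2.74 and 2.90 in Het and 2.99, 2.51, 2.41 and 2.42 in WT replicates, and its genotypes overlapped. Arnt, the partner subunit, was 0.56 higher in KO than in WT cells (SE 0.15, adjusted p = 0.0986) and 0.58 higher in Het than in WT cells (adjusted p = 0.0916). These are values of the brightest of 4 tested Arnt probes. The next had means of −0.53, −0.79 and −1.02 in KO, Het and WT cells. The dimmer probes differed less or otherwise, with −2.31, −2.36 and −2.41, and −4.12, −4.65 and −4.10. Epas1, another alpha subunit, was well above background on 5 of 12 arrays at its brighter probe and was not tested. Arnt2, Elob, Rbx1, Crebbp, Siah2, Cited2 and Cul2, next by p in at least 1 comparison, had adjusted p from 0.33 to 0.651.

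Among 23 tested receptors, relatives and partners of the 10 genes, 5 passed the threshold for KO minus WT, 3 higher and 2 lower, against 1.5% of all tested probes. Of the 23 differences 9 were positive, against 55.1% of all tested probes, with a median of −0.14. Nrp2 and Nrp1 encode the neuropilins, co-receptors of the VEGF family. Nrp2 was at 4.79, 5.20, 5.11 and 5.03 in KO, 4.27, 3.72, 3.92 and 3.83 in Het and 2.24, 3.08, 2.95 and 3.37 in WT replicates, and rose by 2.13 in KO against WT cells (SE 0.23, limma adjusted p = 0.0020), with every KO array above every Het array and every Het array above every WT array. Nrp1 fell by 1.25 in KO against WT cells (SE 0.17, adjusted p = 0.00761) and by 0.91 in KO against Het cells (adjusted p = 0.0366). With slide as a block Nrp1 lost both calls (adjusted p = 0.0677 for KO minus WT and 0.103 for KO minus Het). Nrp2 kept its call (adjusted p = 0.0165).

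Adm2, a relative of adrenomedullin, rose by 2.87 in KO against WT cells (adjusted p = 0.0113), the opposite sign to Adm, at levels from −4.53 to −2.14 in KO, −4.85 to −4.16 in Het and −6.82 to −5.56 in WT cells, with 3 of 4 WT arrays well above background. Vegfd (array name Figf), a growth factor of the VEGF family, fell by 1.87 (adjusted p = 0.0165). Vegfd lost the call with slide as a block (adjusted p = 0.0901). The third higher gene, Car2, a cytosolic carbonic anhydrase, entered the test through its KO arrays, at −5.88 to −2.67, and was well above background on 1 of 4 Het and 1 of 4 WT arrays, so its call (adjusted p = 0.0256) sets KO signals against levels near background and no fold is given. In Het against WT cells 0 of the 23 passed by limma, against 1.09% of all tested probes, with 9 at an unadjusted p under 0.05 (15.9% of all) and the smallest adjusted p at Nrp2 (0.0606), Kdr (0.0654), Adm2 (0.105) and Ndrg4 (0.198). In KO against Het cells 1 of the 23 passed, Nrp1, against 0.816% of all, and Nrp2, Vegfb and Vegfd had adjusted p of 0.0541, 0.0977 and 0.132.

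Of 36 tested further HIF targets, 3 passed the threshold for KO minus WT, Vldlr and Cxcl12 higher and Stc2 lower, against 1.5% of all tested probes. Of the 36 differences 16 were positive, against 55.1% of all tested probes. For Het minus WT 2 passed (Vldlr and Edn1), against 1.09%, and for KO minus Het 3 passed (Cxcl12, Stc2 and Kitl), against 0.816%. Vldlr, a lipoprotein receptor, was at 1.92, 2.47, 1.95 and 1.77 in KO, 1.84, 1.44, 1.51 and 1.42 in Het and 0.32, −0.17, −0.31 and 0.20 in WT replicates. Both KO and Het arrays lay above all WT arrays: it rose by 2.02 in KO (SE 0.20, limma adjusted p = 0.00185) and by 1.54 in Het cells (adjusted p = 0.00948). Its second probe gave 1.78 and 1.43 (adjusted p = 0.0020 and 0.00948). Stc2, a secreted glycoprotein, was at −1.51, −2.09, −1.33 and −1.45 in KO, 0.55, −0.09, 0.81 and 0.75 in Het and 0.24, −0.17, −0.30 and 0.09 in WT replicates. It fell by 1.56 against WT (adjusted p = 0.0113) and by 2.10 against Het cells (adjusted p = 0.00386).

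The chemokine gene Cxcl12 was 2.23 higher in KO than in WT cells (adjusted p = 0.0104) and 1.80 higher than in Het cells (adjusted p = 0.0332). Edn1, which encodes the vessel-narrowing peptide endothelin, fell by 2.85 in Het against WT cells (adjusted p = 0.0137) and was 1.91 higher in KO than in Het cells (adjusted p = 0.0645). Kitl, the ligand of the receptor KIT, fell by 3.32 in KO against Het cells (adjusted p = 0.0195) and was 2.43 lower in KO than in WT cells (−2.43, adjusted p = 0.0555). With slide as a block Cxcl12 had adjusted p of 0.0663 and 0.109, Edn1 0.126 for Het minus WT, Kitl 0.0758 for KO minus Het, Vldlr 0.0635 for Het minus WT and Stc2 0.0595 for KO minus WT, while Vldlr for KO minus WT and Stc2 for KO minus Het kept theirs. The KO minus WT calls of Nrp2 and Vldlr and the KO minus Het call of Stc2 held in 22 of 22 alternative analyses. For KO minus WT, the calls of Stc2, Cxcl12 and Nrp1 held in 21, 20 and 19 of 22. In the same comparison Adm2 held in 19 of 21, Vegfd in 16 of 22 and Car2 in 14 of 21. For Het minus WT, Vldlr held in 21 of 22 and Edn1 in 18 of 22. For KO minus Het, Kitl held in 15 of 22, Cxcl12 in 11 of 22 and Nrp1 in 9 of 22. Gbe1 and Plod2 had adjusted p of 0.122 and 0.184 for Het minus WT. The list's medians were −0.06, 0.22 and −0.18 for KO minus WT, Het minus WT and KO minus Het.

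**Figure D4:**
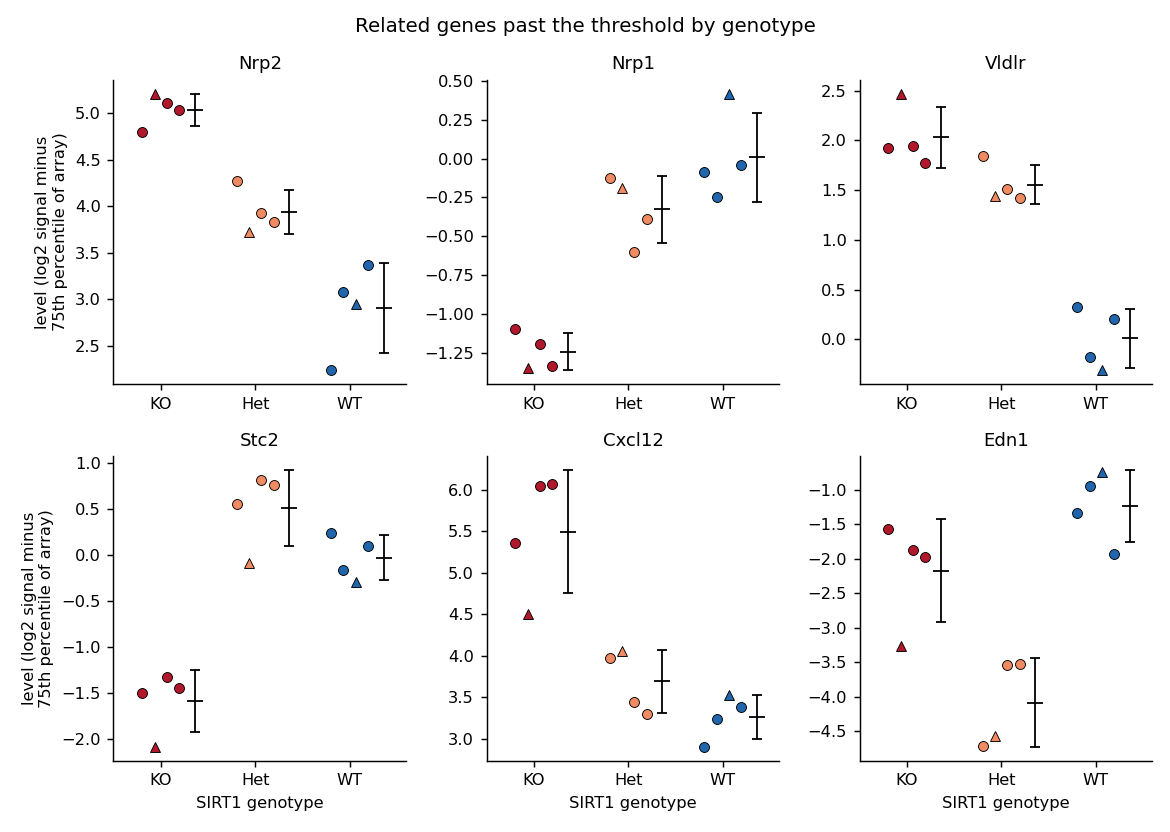
Levels of 6 related genes that passed the threshold in at least 1 comparison (log2 signal minus the array's 75th percentile, vertical axes) by SIRT1 genotype (horizontal axes), with triangles for replicates numbered 3 and mean ± SD over 4 arrays. Nrp2 is highest and Nrp1 lowest in KO arrays, Vldlr is higher in KO and Het than in WT arrays, and Edn1 is lowest in Het arrays.

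Of 18 tested glycolytic HIF targets, 1 passed by limma for Het minus WT, where 1.09% of all tested probes did. For KO minus WT and KO minus Het 0 passed, against 1.5% and 0.816% of all. At an unadjusted limma p under 0.05 there were 3 for KO minus WT, against 16.3% of all tested probes. There were 5 for Het minus WT, against 15.9%, and 4 for KO minus Het, against 11.3%. Pdk1, which encodes a kinase that restrains pyruvate entry into mitochondrial oxidation, rose by 1.03 in Het against WT cells (SE 0.20, limma adjusted p = 0.0413). Its call held in 9 of 22 alternative analyses, and was lost with slide as a block (adjusted p = 0.0959) and with no scaling (0.246). The list's medians were 0.07, 0.34 and −0.38 for KO minus WT, Het minus WT and KO minus Het, and 15 of the 18 genes were lower in KO than in Het cells. Pfkp, Eno1, Aldoc, Hk1, Tpi1 and Aldoa, next by p in at least 1 comparison, had adjusted p from 0.16 to 0.387.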

How the data were processed

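RNA of 12 MEF samples (500 ng each, per the labels) was hybridised to Agilent whole mouse genome 4x44 arrays, and per the submitters' processing notes the authors extracted the spots with Agilent Feature Extraction 9.5. The deposited values are processed signals, an intensity on a linear scale; the deposited series table holds the same intensities, uncentred and unscaled, with a largest relative difference of 0. Coordinates are on mm7, per the file headers. The labels give no date of extraction and name no batch. Sample titles hold short codes that are not explained, with Oct in those of KO replicate 4 and Het replicate 4 and in no WT title. Slides were read from the deposited names.

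Outlier and control spots were left out, spots of a probe averaged, log2 taken, and the 75th percentile of the remaining probes subtracted per array. A probe was tested if well above background on all arrays of at least 1 genotype (25601 of 41174). One limma 3.58.1 fit (R 4.3.3, version 1.17.8 of data.table, jsonlite 2.0.0) of all 12 arrays, with every probe a feature, gave the contrasts, with Benjamini-Hochberg adjustment and a threshold of 0.05. Slide 1 held KO replicate 3 and Het replicates 3 and 4; slide 2 WT replicate 1; slide 3 KO replicate 2, Het replicate 2 and WT replicates 2 and 3; slide 4 KO replicates 4 and 5, Het replicate 5 and WT replicate 5. Promoters and figures used Python 3.11.15, pandas 2.3.3 and matplotlib 3.10.9.

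The members and gene lists were chosen with earlier results of these data known. Named from the lists are genes with a probe past the threshold and up to 4 genes with the smallest p per list and comparison (for the cell type markers, those past the threshold), the HIF subunits and Sirt1; a gene is represented by its brightest tested probe. On simulated data of 25601 probes for KO minus WT, 43.9%, 73.1% and 92.5% of changes of 1, 2 and 4 (log2) were recovered, with 4 false calls. The simulated noise was independent between probes and arrays, so deviations that many probes share on an array, as on WT replicate 3, were not in it. The number of arrays limits the precision. Alternatives were another background correction, scaling and filter, 1 probe per gene, slide and replicate blocks, and leaving out arrays.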

Additional observations from a re-analysis of the deposited data

Results flagged for a closer look

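A single array was far from the other 3 of its genotype, by Dixon's test at the 95% level, in 4 of 45 groups of 4 arrays, where chance gives about 1 in 20, and 3 of the 4 arrays were numbered 3. Egln3 was at −2.75 on KO replicate 3 (other KO arrays −1.66 to −1.54) and at −3.03 on WT replicate 3 (other WT arrays −0.29 to −0.03). Ndrg1 was at 2.35 on KO replicate 3, with the other KO arrays at 2.80. P4ha2 probe 2 was at −9.80 on Het replicate 5 (other Het arrays −7.99 to −7.71), where no array was well above background.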

How the results depend on the processing

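Adm kept its direction and call for KO minus WT under all 22 alternatives (limma adjusted p 0.000182 to 0.0126); for KO minus Het it lost the call under no scaling alone (adjusted p = 0.0562). The count of called probes for KO minus WT, 3, became 1 with no filter and 1 with slide as a block, and 1 to 3 without single arrays; it was 1 without KO replicate 2, 4 or 5 and without WT replicate 2 or 5. For Het minus WT, 0 became 1 with no scaling, 3 without the arrays numbered 3 and 2 with an indicator for them, and 0 to 2 without single arrays (2 without WT replicate 3, 1 without Het replicate 3 or WT replicate 1). For KO minus Het, 1 became 0 with no scaling, 3 without the arrays numbered 3, and 1 to 2 without single arrays (2 without Het replicate 3). Egln1 probe 1 kept its KO minus WT call in 14 of 22 alternatives (0.00324 to 0.103) and probe 2 in 9 of 21 (0.00842 to 0.133).

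Uncalled values that changed sign for KO minus WT were P4ha1 probe 1 (0.091 with slide as a block, 0.17 without the arrays numbered 3), P4ha1 probe 2 (0.15, 0.25), Car9 (−0.35 with slide as a block, −0.21 with the replicate block) and Ddit4 (0.018, 0.033). For Het minus WT they were Vegfa probe 3 (−0.18), P4ha1 probe 1 (−0.040) and probe 2 (−0.040) with no scaling, and Egln3 with slide as a block (0.37). Without single arrays the sign-changing ranges were for KO minus WT, Vegfa probe 1 −0.051 to 0.48, Vegfa probe 2 −0.088 to 0.25, P4ha1 probe 1 −0.24 to 0.065, P4ha1 probe 2 −0.19 to 0.12, Car9 −0.28 to 0.68, Ddit4 −0.50 to 0.11; for Het minus WT, Vegfa probe 3 −0.16 to 0.37, Egln3 −0.94 to 0.28, P4ha2 probe 1 −0.093 to 0.019. The causes were not tested. Over all probes the called counts for KO minus WT, Het minus WT and KO minus Het, 383, 278 and 209, were 161, 58 and 88 with normexp, 153, 162 and 209 with no scaling, 119, 61 and 87 with no filter, 308, 193 and 121 with a filter on all 12 arrays, 72, 58 and 107 with slide as a block, 146, 110 and 218 with the replicate block, 3934, 2636 and 1930 without the arrays numbered 3, 975, 730 and 513 with an indicator for them, 2255, 1898 and 453 without WT replicate 3, and 68, 70 and 50 without KO replicate 4. Under no scaling, calls higher and lower were 28 and 134 for Het minus WT and 171 and 38 for KO minus Het, against 135 and 143, and 134 and 75. Same-numbered arrays had deviations that correlated at −0.09 to 0.40, not all above 0.1, so the numbers are not taken as pairs. Those numbered 3 were all positively correlated, at 0.35 (KO and Het, on the same slide), 0.20 (KO and WT) and 0.40 (Het and WT). The other same-numbered arrays correlated at −0.09 to 0.30. The main fit has no term for the arrays numbered 3. The replicate block gave 2 called members for KO minus WT (Egln1 probe 1 limma adjusted p = 0.058). Differences within slides have no test. The 14 tested probes were well above background on all 12 arrays, and P4ha2 probe 2 on none.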
